A study of Rattus norvegicus with 20 samples.

Results

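The 38 genes described here are active in macrophages and other myeloid leukocytes and were taken by gene name from a rat microarray. A gene counted as measured if a probe was well above background on at least 4 of the 20 arrays. By this filter 35 of the 38 were measured, among 13596 genes in all. Marco was well above background on 0 of the 20 arrays, and Vsig4 and Cd86 on 2 arrays each, so no change is given for these 3.

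The arrays hold total RNA of oesophageal tissue from Wistar rats, with 5 groups of 4 arrays, which the series text ascribes to 4 animals per group. Sham-operated rats and rats with surgically induced reflux oesophagitis that received no drug ("untreated") are the reference groups. The other operated rats received STW5, a liquid mixture of herbal extracts used for functional gut disorders, at 0.5 ml/kg ("low-dose") or 2 ml/kg ("high-dose"), or the proton pump inhibitor omeprazole at 30 mg/kg. Drug treatment ran from 7 days before surgery until 10 days after it, when the oesophagus was taken. All groups but sham thus carry the reflux operation, and the labels name no vehicle for the sham and untreated rats. Blood arrays of the study were not analysed here. A level is the log2 signal of a gene's brightest probe minus the 75th percentile of its array, so that 1 unit is a 2-fold difference, and levels of different genes cannot be compared. Changes are differences of group means ± SE from limma, and a gene is called at a Benjamini-Hochberg adjusted p under 0.05 over all 13596 genes.

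The 75th percentile of the signal was 563 to 1078 units per array, and 61.5% to 70.5% of features were well above background. Markers of the labelled organ were present, with 10 of 12 squamous keratinocyte and 13 of 13 striated muscle genes measured. Low-dose replicates 1 and 2 differed only 1.39 times as much as repeat spots of 1 array do and were averaged as 1 sample, leaving 19 samples and n = 3 for that group. Sham replicate 2 lay closer to omeprazole replicate 2, at 2.27 times the spot spread, than any other pair of arrays from different groups. It was also the highest sham array in many of the genes below, so results against sham are given without it where they depend on it. The STW5 doses are uncertain: the titles and the series text number the 2 dose groups the opposite way, and in the deposited value table each of the 8 STW5 columns matches a scanner file titled with the other dose. Groups are named here by the titles of the scanner files, and "low-dose" and "high-dose" trade places if the value table is right. Slide 1 held the sham arrays, slide 2 the untreated and low-dose ones, and slide 3 the high-dose and omeprazole ones. Only low-dose against untreated and high-dose against omeprazole are comparisons within a slide; in the others slide and group cannot be told apart.

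Macrophages arise from monocytes recruited from blood or from cells resident in the tissue, under the transcription factor PU.1 and the growth factor receptor CSF1R. They recognise microbes and dying cells through pattern, scavenger and Fc receptors, engulf them, and attack the contents with the phagocyte oxidase. In an injured oesophagus they and neutrophils enter the mucosa, and many of these genes are also expressed by neutrophils, dendritic cells or other leukocytes.

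The comparison of untreated oesophagitis with sham surgery asks what reflux changed. Of the 35 measured members 32 rose, and 0 fell; the median change was 3.41, against -0.08 over all genes, and 15% of all genes were called higher. In 32 members no untreated array was as low as any sham array, a separation seen in 11.7% of all genes. The members not called were Irf8, Tlr4 and Itgax. In each comparison with called members, no member had an unadjusted p under 0.05 (limma) in the opposite direction. The count was 32 without sham replicate 2 as well. In RNA of whole tissue, more cells of a type and more RNA per cell cannot be told apart.

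**Figure D1:**
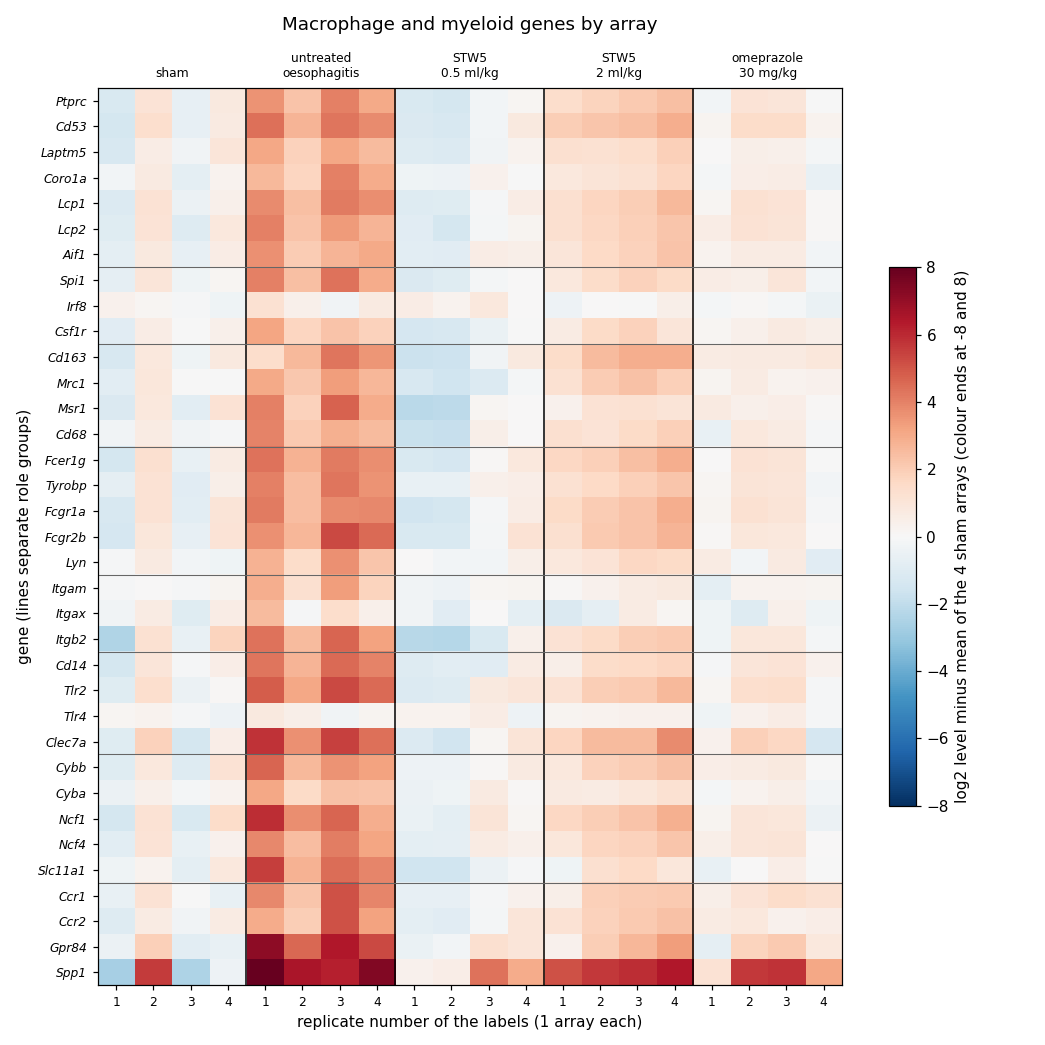
Level of each of the 35 measured genes (rows, grouped by role) on each of the 20 arrays (columns), as the log2 difference from the mean of the 4 sham arrays, red above and blue below it. The untreated columns are the reddest in most rows, the high-dose columns are paler, and Irf8 and Tlr4 are pale throughout.

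Genes of the leukocyte membrane and cytoskeleton rose in 7 of 7 cases. Cd53 encodes a tetraspanin found on leukocytes. Its levels were -2.89, -0.13, -2.11 and -0.79 in the sham arrays, and 2.95, 1.25, 2.80 and 2.29 in the untreated arrays, in replicate order throughout. They were -2.65, -2.77, -1.71 and -0.70 in the low-dose arrays, 0.46, 0.74, 0.95 and 1.45 in the high-dose arrays, and -1.25, -0.02, -0.04 and -1.17 in the omeprazole arrays. The untreated and the high-dose arrays both lay above every sham array, and only high-dose replicate 4 reached above the lowest untreated array. The change from sham to untreated was 3.80 ± 0.56 (adjusted p = 0.000295, limma). Ptprc encodes CD45, the phosphatase carried by nucleated blood cells, and averaged -2.33 ± 1.14 in sham, 0.92 ± 0.77 in untreated, -2.79 ± 0.76 in low-dose, -0.40 ± 0.43 in high-dose and -1.86 ± 0.66 in omeprazole samples (mean ± SD, n = 3 for low-dose and 4 for the others, as for all means below). Laptm5, a lysosomal membrane protein gene of blood cells, averaged 2.51 ± 1.01 in sham, 5.16 ± 0.60 in untreated, 2.14 ± 0.67 in low-dose, 3.96 ± 0.33 in high-dose and 2.70 ± 0.28 in omeprazole samples. Coro1a, whose product coats the actin of leukocytes, averaged 1.29 ± 0.64 in sham, 4.14 ± 0.98 in untreated, 1.26 ± 0.34 in low-dose, 2.49 ± 0.36 in high-dose and 1.40 ± 0.57 in omeprazole samples. These genes rose by 3.25 ± 0.52, 2.64 ± 0.42 and 2.85 ± 0.42. Lcp1 encodes the actin bundler L-plastin and averaged 0.88 ± 1.00 in sham, 4.39 ± 0.78 in untreated, 0.72 ± 0.80 in low-dose, 2.79 ± 0.53 in high-dose and 1.52 ± 0.61 in omeprazole samples. Lcp2 encodes the signalling adaptor SLP-76 and averaged -4.96 ± 1.13 in sham, -1.84 ± 0.77 in untreated, -5.34 ± 0.72 in low-dose, -3.20 ± 0.40 in high-dose and -4.23 ± 0.48 in omeprazole samples. Aif1 encodes IBA1, a calcium-binding protein widely used to stain macrophages, and averaged 1.03 ± 0.82 in sham, 3.90 ± 0.66 in untreated, 1.08 ± 0.81 in low-dose, 2.71 ± 0.53 in high-dose and 1.38 ± 0.42 in omeprazole samples. Their rises were 3.51 ± 0.50, 3.12 ± 0.49 and 2.86 ± 0.43.

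Among the lineage regulators, 2 of 3 rose. Spi1 encodes PU.1, the transcription factor that drives myeloid development. Its levels were -5.31, -3.65, -4.95 and -4.44 in the sham arrays, and -0.55, -2.19, -0.27 and -1.60 in the untreated arrays. They were -5.77, -5.54, -4.74 and -4.56 in the low-dose arrays, -3.72, -3.13, -2.72 and -3.06 in the high-dose arrays, and -4.02, -4.12, -3.59 and -4.81 in the omeprazole arrays. The untreated arrays were the highest 4, and the change was 3.44 ± 0.43 (adjusted p = 0.000181, limma). Csf1r, the receptor for colony-stimulating factor 1 that macrophages need to survive, averaged -2.92 ± 0.68 in sham, -0.67 ± 0.64 in untreated, -3.55 ± 0.65 in low-dose, -1.66 ± 0.54 in high-dose and -2.50 ± 0.24 in omeprazole samples and rose by 2.25 ± 0.38. Its other probe changed by 0.85, the same direction but less. Irf8, an interferon regulatory factor gene of monocytes and dendritic cells, is the exception in this group. Its levels were -3.59, -3.77, -4.02 and -4.29 in the sham arrays, and -2.72, -3.54, -4.19 and -3.19 in the untreated arrays. They were -3.35, -3.66, -3.07 and -3.86 in the low-dose arrays, -4.34, -3.90, -3.93 and -3.44 in the high-dose arrays, and -4.10, -3.85, -4.06 and -4.47 in the omeprazole arrays. All groups overlap, and the change of 0.51 ± 0.28 was not called (95% interval -0.08 to 1.09, adjusted p = 0.177, limma).

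All 4 scavenger and endocytic receptor genes that were measured, of 6, rose. Msr1 encodes the class A scavenger receptor for modified lipoproteins and bacteria. Its levels were -6.04, -4.03, -5.76 and -3.77 in the sham arrays, and -0.86, -3.04, -0.19 and -1.95 in the untreated arrays. They were -7.04, -7.01, -4.76 and -4.84 in the low-dose arrays, -4.54, -3.73, -3.69 and -3.90 in the high-dose arrays, and -4.16, -4.49, -4.37 and -4.79 in the omeprazole arrays. Untreated and sham arrays did not overlap, and the change was 3.39 ± 0.62 (adjusted p = 0.000960, limma). Mrc1 encodes the mannose receptor CD206, a marker of tissue-resident and repair-type macrophages. Its levels were -6.12, -4.36, -5.31 and -5.27 in the sham arrays, and -2.23, -3.12, -1.94 and -2.59 in the untreated arrays. They were -6.54, -6.85, -6.33 and -5.43 in the low-dose arrays, -4.04, -3.21, -2.93 and -3.34 in the high-dose arrays, and -5.06, -4.59, -5.01 and -4.92 in the omeprazole arrays. The change was 2.80 ± 0.35 (adjusted p = 0.000181, limma), and the high-dose arrays lay nearest to the untreated ones. Cd163 encodes the scavenger receptor for haemoglobin bound to haptoglobin, also found on resident macrophages. Its levels were -2.54, -0.41, -1.55 and -0.44 in the sham arrays, and 0.14, 1.36, 3.04 and 2.31 in the untreated arrays. They were -2.96, -2.92, -1.51 and -0.48 in the low-dose arrays, 0.26, 1.31, 1.65 and 1.69 in the high-dose arrays, and -0.56, -0.52, -0.52 and -0.31 in the omeprazole arrays. The untreated arrays lay above sham, with a change of 2.95 ± 0.61 (adjusted p = 0.00207, limma), but 3 high-dose arrays lay above the lowest untreated array by more than 1 unit. Cd68, a lysosomal glycoprotein gene used as a general macrophage marker, averaged 0.26 ± 0.43 in sham, 3.12 ± 0.81 in untreated, -0.18 ± 1.23 in low-dose, 1.72 ± 0.35 in high-dose and 0.47 ± 0.66 in omeprazole samples and rose by 2.86 ± 0.47. Vsig4, a complement receptor gene of resident macrophages, was well above background only in untreated replicates 3 and 4. Marco encodes another class A scavenger receptor.

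Genes of Fc receptors, their adaptors and the kinase Lyn rose in 5 of 5 cases. Fcgr2b encodes the inhibitory receptor for immunoglobulin G. Its levels were -2.86, -0.59, -2.12 and -0.39 in the sham arrays, and 2.14, 1.15, 3.78 and 3.03 in the untreated arrays. They were -2.70, -2.70, -1.68 and -0.33 in the low-dose arrays, -0.23, 0.62, 0.79 and 1.20 in the high-dose arrays, and -1.38, -0.56, -0.68 and -1.44 in the omeprazole arrays. Untreated and sham arrays did not overlap for Fcgr2b, and the change was 4.02 ± 0.62 (adjusted p = 0.000373, limma). Fcgr1a, the high-affinity activating receptor gene, averaged 0.08 ± 1.26 in sham, 3.65 ± 0.73 in untreated, -0.25 ± 1.04 in low-dose, 2.25 ± 0.58 in high-dose and 0.66 ± 0.63 in omeprazole samples and rose by 3.57 ± 0.57. Fcer1g, whose product is the signalling chain shared by activating Fc receptors, averaged 0.90 ± 1.22 in sham, 4.65 ± 0.70 in untreated, 0.78 ± 1.06 in low-dose, 3.13 ± 0.54 in high-dose and 1.44 ± 0.65 in omeprazole samples and rose by 3.75 ± 0.56. Tyrobp, the gene of the adaptor DAP12, averaged 2.38 ± 0.96 in sham, 5.98 ± 0.81 in untreated, 2.49 ± 0.62 in low-dose, 4.12 ± 0.41 in high-dose and 2.87 ± 0.61 in omeprazole samples and rose by 3.60 ± 0.47. Lyn encodes a Src family kinase that acts downstream of these receptors. It was not well above background on any sham, low-dose or omeprazole array, and passed the filter only through 4 untreated and 3 high-dose arrays. Lyn thus entered the measured members, and the counts of calls, through the groups in which its mean was highest. It was at least 3.67-fold higher in untreated than in sham arrays (adjusted p = 0.000531, limma). This is a lower bound set against the weakest signal well above background. Lyn averaged -7.12 ± 0.47 in sham, -4.59 ± 0.92 in untreated, -7.07 ± 0.36 in low-dose, -5.83 ± 0.38 in high-dose and -7.05 ± 0.78 in omeprazole samples.

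Of 3 integrin genes 2 rose. Itgb2 encodes the beta 2 chain shared by the leukocyte integrins. Its levels were -5.50, -1.86, -3.71 and -1.34 in the sham arrays, and 1.27, -0.56, 1.55 and 0.12 in the untreated arrays. They were -5.33, -5.36, -4.34 and -2.70 in the low-dose arrays, -1.97, -1.57, -1.13 and -0.99 in the high-dose arrays, and -3.43, -2.18, -2.21 and -3.24 in the omeprazole arrays. The change was 3.70 ± 0.76 (adjusted p = 0.00197, limma) with no overlap, and Itgb2 spread more among sham arrays than most members. Itgam, the alpha chain of complement receptor 3 (CD11b), averaged -0.76 ± 0.15 in sham, 1.58 ± 0.95 in untreated, -0.75 ± 0.30 in low-dose, -0.27 ± 0.30 in high-dose and -0.75 ± 0.51 in omeprazole samples and rose by 2.34 ± 0.36; its other probe changed by 4.06. Itgax encodes CD11c, the alpha chain used as a dendritic cell marker. Its levels were -6.91, -5.95, -7.60 and -6.00 in the sham arrays, and -4.06, -6.71, -5.20 and -6.24 in the untreated arrays. They were -6.88, -7.49, -6.60 and -7.41 in the low-dose arrays, -7.75, -7.34, -5.94 and -6.47 in the high-dose arrays, and -6.93, -7.62, -6.19 and -6.98 in the omeprazole arrays. Itgax was well above background on 1 sham and 2 untreated arrays, the groups overlap, and the change of 1.06 ± 0.54 was not called (95% interval -0.07 to 2.20, adjusted p = 0.141, limma). Itgam and Itgax are neighbours on chromosome 1 of GRCr8, at 192089496 to 192139947 and 192140089 to 192171151.

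Microbial pattern receptor genes rose in 3 of 4 cases. Clec7a encodes dectin-1, the receptor for fungal beta-glucan. Its levels were -6.91, -4.12, -7.38 and -5.44 in the sham arrays, and -0.16, -2.30, -0.50 and -1.54 in the untreated arrays. They were -7.07, -7.47, -5.79 and -4.95 in the low-dose arrays, -4.21, -3.44, -3.46 and -2.17 in the high-dose arrays, and -5.64, -4.06, -4.34 and -7.29 in the omeprazole arrays. The change was 4.84 ± 0.79 (adjusted p = 0.000491, limma); 2 of the 4 sham arrays were not well above background. Tlr2, the receptor gene for bacterial lipoproteins, averaged -1.24 ± 1.00 in sham, 3.19 ± 0.94 in untreated, -1.02 ± 1.12 in low-dose, 0.72 ± 0.58 in high-dose and -0.53 ± 0.77 in omeprazole samples and rose by 4.43 ± 0.58. Cd14, the gene of the co-receptor that hands lipopolysaccharide to TLR4, averaged -0.37 ± 1.04 in sham, 3.50 ± 0.81 in untreated, -0.77 ± 0.91 in low-dose, 0.93 ± 0.58 in high-dose and 0.19 ± 0.57 in omeprazole samples and rose by 3.87 ± 0.52. Tlr4, the lipopolysaccharide receptor gene itself, did not pass the test. Its levels were -2.81, -2.67, -3.03 and -3.34 in the sham arrays, and -2.20, -2.50, -3.22 and -2.77 in the untreated arrays. They were -2.71, -2.70, -2.34 and -3.37 in the low-dose arrays, -2.76, -2.67, -2.61 and -2.63 in the high-dose arrays, and -3.33, -2.61, -2.34 and -3.04 in the omeprazole arrays. All 5 groups overlap, and the change was 0.29 ± 0.26 (95% interval -0.26 to 0.83, adjusted p = 0.421, limma). Cd14 and Tlr2 thus rose, and the upper end of the interval for Tlr4 was 0.83.

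Phagocyte oxidase and phagosome genes rose in 5 of 5 cases. Ncf1 encodes p47phox, the subunit that assembles the oxidase. Its levels were -2.63, -0.11, -2.47 and 0.25 in the sham arrays, and 4.65, 2.48, 3.41 and 1.64 in the untreated arrays. They were -1.79, -2.05, -0.23 and -1.07 in the low-dose arrays, 0.42, 0.71, 1.02 and 1.60 in the high-dose arrays, and -0.99, -0.28, -0.33 and -1.72 in the omeprazole arrays. Untreated arrays lay above all others, and the change was 4.29 ± 0.69 (adjusted p = 0.000426, limma). Cyba encodes p22phox, the smaller membrane subunit, which is also expressed outside leukocytes. Its levels were 3.43, 4.30, 3.73 and 4.15 in the sham arrays, and 7.02, 5.43, 6.22 and 6.16 in the untreated arrays. They were 3.46, 3.56, 4.64 and 4.02 in the low-dose arrays, 4.62, 4.58, 4.83 and 5.14 in the high-dose arrays, and 3.75, 4.21, 4.35 and 3.67 in the omeprazole arrays. The change was 2.31 ± 0.31 (adjusted p = 0.000181, limma), the smallest of the called members after Csf1r. Cybb, the catalytic subunit gene, averaged -4.94 ± 1.16 in sham, -1.42 ± 0.88 in untreated, -4.81 ± 0.56 in low-dose, -3.17 ± 0.63 in high-dose and -4.45 ± 0.36 in omeprazole samples, and Ncf4, the p40phox gene, averaged -0.89 ± 0.89 in sham, 2.52 ± 0.74 in untreated, -0.76 ± 0.75 in low-dose, 0.78 ± 0.55 in high-dose and -0.27 ± 0.46 in omeprazole samples. They rose by 3.51 ± 0.51 and 3.41 ± 0.45. Slc11a1 encodes NRAMP1, which pumps metal ions out of the phagosome. Its levels were -4.89, -4.26, -5.32 and -3.72 in the sham arrays, and 0.97, -1.75, -0.08 and -0.62 in the untreated arrays. They were -6.12, -6.12, -4.99 and -4.66 in the low-dose arrays, -4.88, -3.28, -2.93 and -3.67 in the high-dose arrays, and -5.15, -4.51, -3.99 and -4.60 in the omeprazole arrays. It rose by 4.18 ± 0.53 (adjusted p = 0.000181, limma).

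All 4 chemotactic receptor and activation genes that were measured, of 5, rose; not measured was Cd86, a gene for a ligand that activates T cells. Spp1 encodes osteopontin, a secreted matrix protein made by activated macrophages. Its levels were -7.21, 1.05, -7.03 and -4.96 in the sham arrays, and 4.16, 2.02, 1.66 and 2.85 in the untreated arrays. They were -4.17, -4.02, -0.17 and -1.57 in the low-dose arrays, 0.53, 1.12, 1.38 and 1.86 in the high-dose arrays, and -3.36, 1.15, 1.27 and -1.45 in the omeprazole arrays. Sham replicate 2 stood more than 6 units above the next sham array. The change was 7.21 ± 1.47 (adjusted p = 0.00187, limma), the largest of the 35, and 9.07 without sham replicate 2. Gpr84 encodes a receptor for medium-chain fatty acids that inflammatory signals induce. Its levels were -7.04, -4.64, -7.35 and -7.12 in the sham arrays, and 0.61, -1.94, -0.13 and -1.29 in the untreated arrays. They were -7.07, -6.74, -5.28 and -5.54 in the low-dose arrays, -6.17, -4.58, -3.88 and -3.20 in the high-dose arrays, and -7.26, -4.78, -4.42 and -5.72 in the omeprazole arrays. Only sham replicate 2 was well above background among the sham arrays, and the change was 5.85 ± 0.78 (adjusted p = 0.000181, limma). The other probe of Gpr84 changed by 4.75. Ccr2, the receptor gene for monocyte-attracting CCL2, averaged -5.81 ± 0.80 in sham, -2.52 ± 1.30 in untreated, -5.83 ± 0.91 in low-dose, -3.97 ± 0.51 in high-dose and -5.22 ± 0.20 in omeprazole samples. Ccr1, a receptor gene for CCL3 and CCL5, averaged -6.33 ± 0.83 in sham, -2.57 ± 1.19 in untreated, -6.46 ± 0.49 in low-dose, -4.70 ± 0.78 in high-dose and -5.26 ± 0.42 in omeprazole samples. They rose by 3.29 ± 0.54 and 3.76 ± 0.53. Among the 4 sham arrays Ccr1 was well above background on 1 and Ccr2, like Msr1, Lcp2 and Spp1, on 2, so the size of these changes rests in part on signals near background. Ccr2 and Ccr1 lie on chromosome 8, at 132611883 to 132619106 and 132433711 to 132439266.

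**Figure D2:**
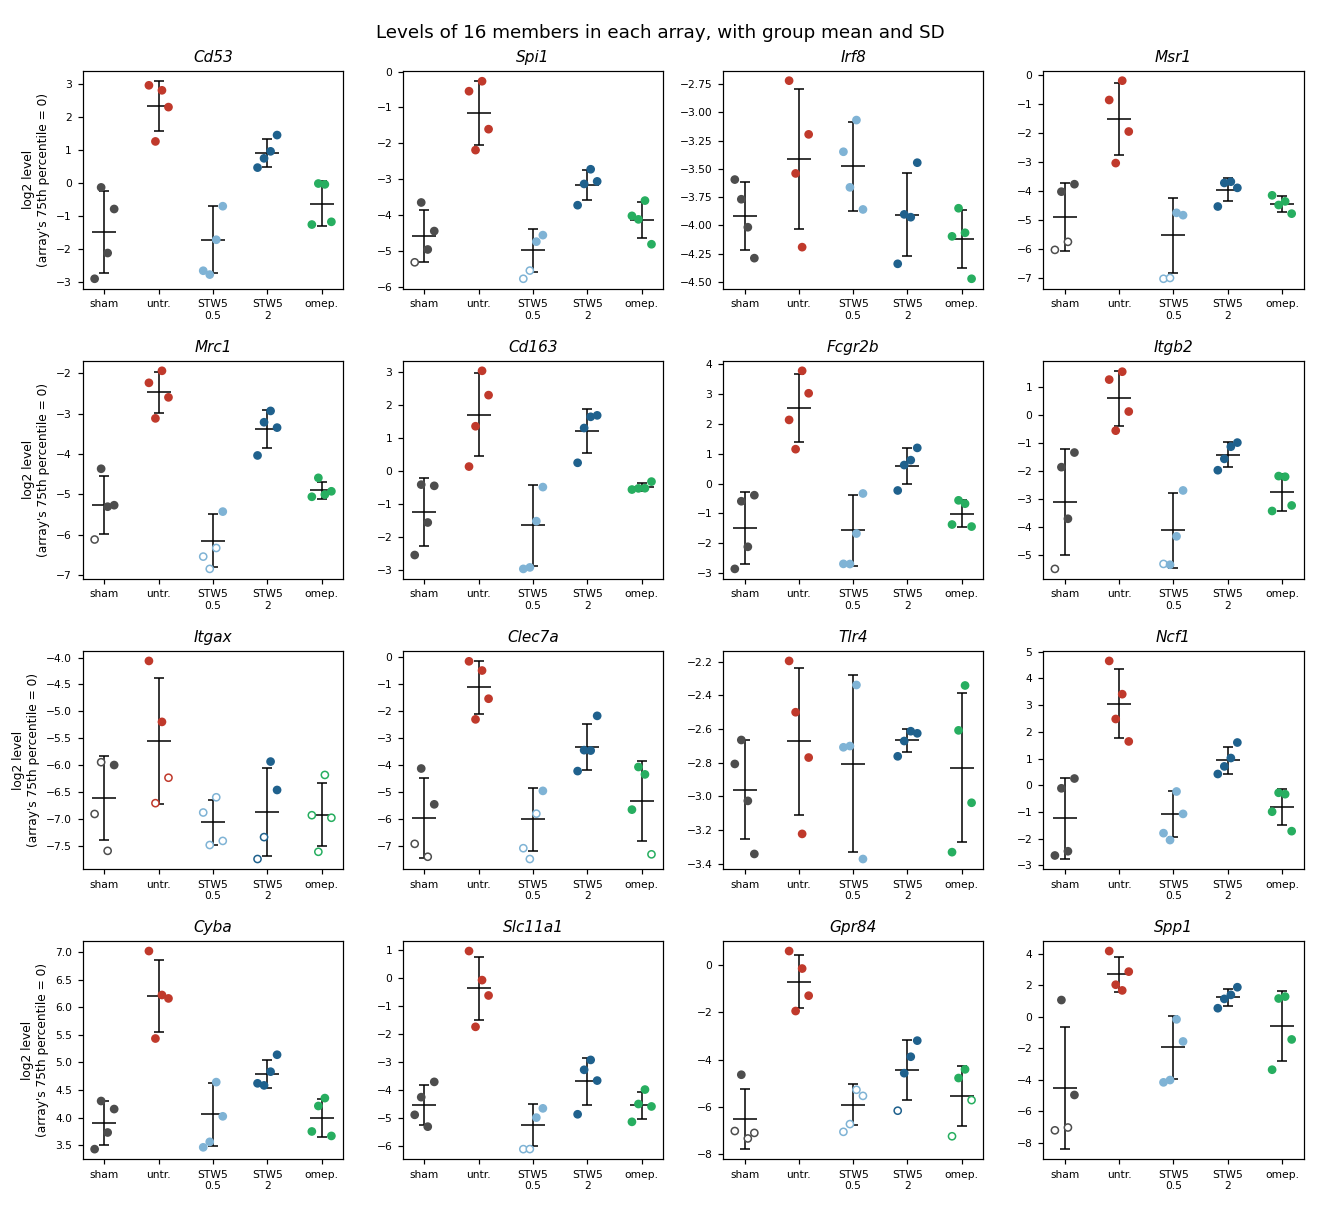
Levels of 16 genes on each of the 20 arrays (y axis, log2 with the array's 75th percentile at 0), by group; points are arrays, open where not well above background, and bars are the group mean ± SD (n = 3 for low-dose STW5, whose replicates 1 and 2 count once). Untreated arrays are highest for most genes, sham replicate 2 stands apart for Spp1 and Gpr84, and Irf8 and Tlr4 overlap in all groups.

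Promoter letters are shown because most measured members moved together. RefSeq promoters of GRCr8, from 250 bases before to 50 after the start, were found for 25 of the 38 genes. For each member 1 promoter was used, and its start is not always the outer end of the gene. The composite motif GGAANNGAA, bound by PU.1 with an interferon regulatory factor, occurred on either strand in 9 of 25 (36%), namely Ccr2, Cd14, Cd68, Cd86, Clec7a, Cybb, Marco, Spp1 and Vsig4. Of these, Cd86, Marco and Vsig4 were not measured, which leaves 6 of the 22 measured members with a promoter. The motif occurred in 9.32% of all 33469 promoters. The interferon-stimulated element GAAANNGAA occurred in 5 of 25 (20%) against 9.71%, and it overlaps the first motif in letters. The PU.1 motif GAGGAAGT was in 1 of 25, 46 to 39 bases before the start of Cd53, against 2.42% of all. The C/EBP motif TTGCGCAA and the NF-kB motif GGGANTTTC were in 0 of 25, against 0.17% and 1.15%. These matches are descriptions of letters and not binding sites, and no enrichment was tested. The 200 bases before this start are given for 4 of the 6 called genes with the composite motif, leaving out Cd14 and Spp1. They run 5′ to 3′ on the gene's strand, with GGAANNGAA or its other-strand form TTCNNTTCC in capitals. They lie at chr8:132612003-132612202 on the + strand for Ccr2, and on the - strand at chr10:54882442-54882641 for Cd68, chr4:164599828-164600027 for Clec7a and chrX:16065066-16065265 for Cybb. The Ccr2 window lies inside the gene's span given above. The Clec7a window lies partly inside its gene, which spans 164588737 to 164599953.
Ccr2: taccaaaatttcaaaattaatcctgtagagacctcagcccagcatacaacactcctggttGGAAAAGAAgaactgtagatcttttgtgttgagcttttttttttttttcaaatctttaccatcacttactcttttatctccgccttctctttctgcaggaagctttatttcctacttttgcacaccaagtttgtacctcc
Cd68: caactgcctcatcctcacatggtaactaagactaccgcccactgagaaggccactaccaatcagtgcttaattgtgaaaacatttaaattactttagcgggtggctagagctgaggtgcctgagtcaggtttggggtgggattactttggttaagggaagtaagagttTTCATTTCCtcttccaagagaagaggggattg
Clec7a: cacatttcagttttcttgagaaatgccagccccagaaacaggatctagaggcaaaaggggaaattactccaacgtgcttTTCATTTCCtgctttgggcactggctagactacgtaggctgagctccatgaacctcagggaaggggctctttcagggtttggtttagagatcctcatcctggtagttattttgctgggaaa
Cybb: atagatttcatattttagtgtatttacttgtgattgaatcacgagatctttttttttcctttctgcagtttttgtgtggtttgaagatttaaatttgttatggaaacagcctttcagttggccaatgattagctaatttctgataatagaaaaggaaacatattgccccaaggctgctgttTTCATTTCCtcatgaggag

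Low-dose STW5 against untreated oesophagitis asks what the drug changed, within slide 2. Of the 35 members 33 fell and 0 rose, with a median of -3.67 against 0.17 over all genes, and 15.9% of all genes were called lower. In 32 members every low-dose sample lay below every untreated array, against 15.3% of all genes. Irf8 changed by -0.07 ± 0.30 and Tlr4 by -0.13 ± 0.28 (adjusted p = 0.880 and 0.732, limma), and neither was called. With the value table's own columns, which hold the other dose's arrays under this name, 14 members were called.

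Some of the largest falls came from phagosome, pattern receptor, integrin and activation genes. Slc11a1 fell (-4.89 ± 0.58), Clec7a (-4.88 ± 0.86), Itgb2 (-4.72 ± 0.82) and Spp1 (-4.62 ± 1.59) (adjusted p = 0.000175, 0.000573, 0.000540 and 0.0306, limma). Gpr84 was not well above background on any low-dose array and was at least 32.4-fold lower (adjusted p = 0.000369). Lyn was likewise at least 3.41-fold and Itgax at least 1.75-fold lower (adjusted p = 0.000725 and 0.0493). The calls of Itgax and Spp1 were lost without single arrays: Itgax without low-dose replicates 1 and 2 together, 3 or 4 or untreated replicate 1 or 3, and Spp1 without low-dose replicates 1 and 2 together or 4 or untreated replicate 1 or 4.

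Most other receptor genes fell as well. Cd14 fell (-4.27 ± 0.56), Tlr2 (-4.21 ± 0.63), Fcgr2b (-4.10 ± 0.67), Fcgr1a (-3.89 ± 0.62), Msr1 (-4.03 ± 0.67), Mrc1 (-3.68 ± 0.38), Cd163 (-3.36 ± 0.66) and Cd68 (-3.31 ± 0.51). The adaptor genes Fcer1g and Tyrobp fell, with changes of -3.87 ± 0.61 and -3.49 ± 0.51, and the chemokine receptor genes Ccr1 and Ccr2, with changes of -3.89 ± 0.57 and -3.30 ± 0.58. Among regulators, Spi1 fell (-3.83 ± 0.47) and Csf1r (-2.88 ± 0.41). The general leukocyte genes Ptprc, Cd53, Laptm5, Coro1a, Lcp1, Lcp2 and Aif1 fell, with changes of -3.71 ± 0.56, -4.03 ± 0.61, -3.02 ± 0.45, -2.88 ± 0.45, -3.67 ± 0.54, -3.49 ± 0.53 and -2.81 ± 0.47. The oxidase genes Cybb, Cyba, Ncf1 and Ncf4 fell, with changes of -3.38 ± 0.55, -2.15 ± 0.33, -4.12 ± 0.74 and -3.28 ± 0.49, and Itgam fell (-2.34 ± 0.39). Each of these 26 genes had an adjusted p of at most 0.00109 (limma) and no overlap between the groups. The other probe of Csf1r changed by -1.75 and that of Itgam by -5.05. That of Gpr84 changed by -4.38, against -5.22 for the probe used. On the low-dose arrays Mrc1, Clec7a, Ccr1 and Ccr2 were well above background on 1 of 4 and Msr1, Lcp2, Slc11a1 and Spi1 on 2 of 4, so the size of these falls rests in part on signals near background.

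Omeprazole against untreated oesophagitis gave 31 members that fell and 0 that rose, with a median of -2.79 against 0.10 over all genes; 12.2% of all genes were called lower. In 32 members the omeprazole arrays lay below all untreated arrays, against 12.6% of all genes. Irf8, Tlr4, Itgax and Spp1 were not called. The largest falls were Gpr84 at -4.86 ± 0.78, Clec7a at -4.21 ± 0.79 and Slc11a1 at -4.19 ± 0.53 (adjusted p = 0.000444, 0.00138 and 6.32e-05, limma). Lyn was at least 4.14-fold lower (adjusted p = 0.000710). Ncf1 fell (-3.88 ± 0.69), Tlr2 (-3.73 ± 0.58), Fcgr2b (-3.54 ± 0.62), Itgb2 (-3.36 ± 0.76), Cd14 (-3.31 ± 0.52) and Fcer1g (-3.21 ± 0.56). The resident-macrophage genes Mrc1 and Cd163 fell, with changes of -2.43 ± 0.35 and -2.19 ± 0.61, and the call of Cd163 was lost without untreated replicate 3. Spi1 fell (-2.98 ± 0.43) and Csf1r (-1.83 ± 0.38). The other probes of Csf1r and Itgam changed by -0.58 and -3.62, against -1.83 and -2.33 for the probes used. That of Gpr84 changed by -4.13, against -4.86, so the rank of Gpr84 as the largest fall rests on the probe used.

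High-dose STW5 against untreated oesophagitis compares slide 3 with slide 2, so slide and drug cannot be told apart, unlike for the low dose. Of the 35 members 13 fell and 0 rose, with a median of -1.53 against -0.01 over all genes; 4.36% of all genes were called lower. High-dose arrays lay below all untreated arrays in 17 members, against 7.97% of all genes. The falls took in 4 of 5 phagosome genes: Slc11a1 fell (-3.32 ± 0.53), Cyba (-1.42 ± 0.31), Cybb (-1.75 ± 0.51) and Ncf4 (-1.74 ± 0.45) (adjusted p = 0.000911, 0.0107, 0.0421 and 0.0255, limma). Gpr84 fell (-3.77 ± 0.78), Ccr1 (-2.13 ± 0.53), Cd14 (-2.57 ± 0.52), Tlr2 (-2.48 ± 0.58) and Msr1 (-2.45 ± 0.62) (adjusted p = 0.00764, 0.0208, 0.00686, 0.0155 and 0.0226). Spi1 fell (-2.01 ± 0.43), Itgam (-1.85 ± 0.36), Tyrobp (-1.86 ± 0.47) and Coro1a (-1.65 ± 0.42) (adjusted p = 0.00988, 0.00468, 0.0221 and 0.0226).

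The resident-macrophage genes Cd163 and Mrc1 and the receptor gene Csf1r were not among these 13 and were chosen for mention after their values were seen. Most members were not called here, among them Aif1, Fcgr1a, Fcer1g, Fcgr2b and Ptprc, so the lack of a call is not particular to resident-macrophage genes. For Cd163, Mrc1 and Csf1r the values are as follows. Their changes were -0.49 ± 0.61, -0.91 ± 0.35 and -0.99 ± 0.38 (adjusted p = 0.634, 0.108 and 0.0993, limma), with a 95% interval of -1.78 to 0.80 for Cd163. The count of 13 depended on single arrays: it was 24 without untreated replicate 2, and 6 without untreated replicate 3 or without high-dose replicate 1. Fitted on these 2 groups alone it was 7, with normexp background correction 26, and with the value table's columns 33.

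**Figure D3:**
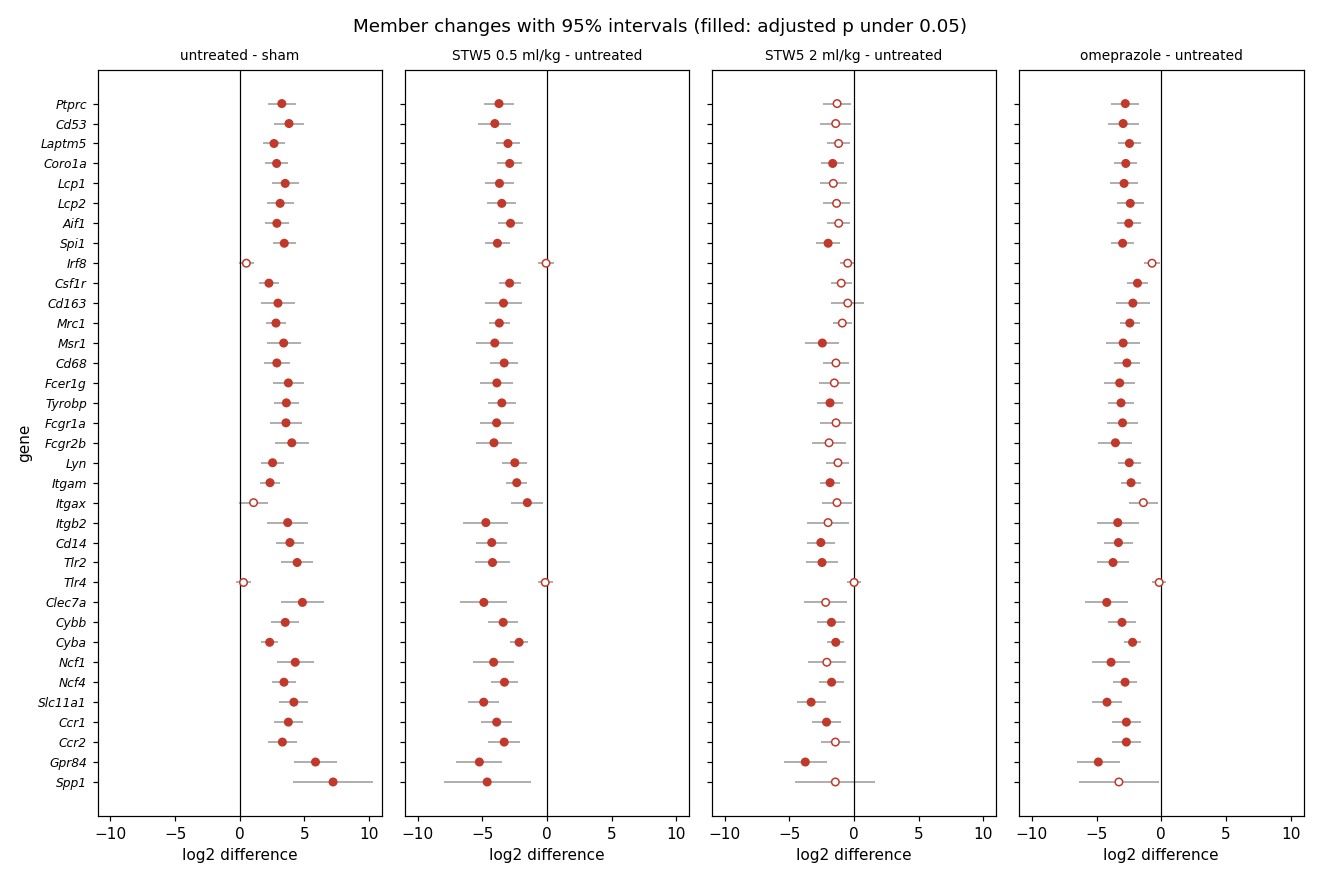
Log2 change of each of the 35 measured genes (rows) in 4 comparisons (panels), with 95% intervals; filled points have an adjusted p under 0.05. Filled points number 32, 33, 13 and 31 from left to right, and the high-dose STW5 panel lies closest to 0.

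Set against sham surgery, the treated groups differed in how many members stood above it. For low-dose STW5 0 of 35 members were called in limma (1 at an unadjusted p under 0.05, Mrc1), with a median of -0.12; 0.00736% of all genes were called in either direction. The smallest p-values were those of Mrc1 at -0.89 ± 0.38 (95% interval -1.70 to -0.08), Spp1 at 2.59 ± 1.59 (-0.76 to 5.94) and Csf1r at -0.63 ± 0.41 (-1.49 to 0.23), with adjusted p of 0.606, 0.669 and 0.685 (limma). For omeprazole 0 of 35 members were called in limma (1 at an unadjusted p under 0.05, Spp1), with a median of 0.47; 1.57% of all genes were called. Spp1 stood at 3.94 ± 1.47 (0.84 to 7.04), Ccr1 at 1.06 ± 0.53 (-0.06 to 2.19) and Cd53 at 0.86 ± 0.56 (-0.33 to 2.05), with adjusted p of 0.310, 0.476 and 0.589 (limma). Without sham replicate 2, Spp1 was called at 5.80. The median SE of a member was 0.56 for low-dose and 0.52 for omeprazole, so a difference from sham of 1 unit can be missed in either.

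For high-dose STW5 20 of 35 members stood higher than sham, with a median of 1.69 against -0.09 over all genes; 6.05% of all genes were called higher. In 19 members the high-dose arrays lay above all sham arrays, against 9.8% of all genes. Mrc1 stood higher by 1.88 ± 0.35, Cd163 by 2.46 ± 0.61, Cd53 by 2.38 ± 0.56 and Spp1 by 5.76 ± 1.47 (adjusted p = 0.00431, 0.0225, 0.0176 and 0.0253, limma). Leukocyte membrane and cytoskeleton genes were called in 6 of 7 cases. Genes of Fc receptors, their adaptors and the kinase Lyn were called in 4 of 5, all but Lyn, among them Fcer1g at 2.23 ± 0.56 and Fcgr1a at 2.18 ± 0.57. Integrin genes were called in 0 of 3 (1 at an unadjusted p under 0.05, Itgb2 at 1.69 ± 0.76), with 1 probe used per gene. The other probe of Itgam changed by 4.06 in untreated against sham and -2.32 in high-dose against untreated. The probe used changed by 2.34 and -1.85. The difference of the other probe between high-dose and sham was not tested. The count of 20 depended on single arrays: it was 1 without sham replicate 1, 1 without sham replicate 3, 3 without high-dose replicate 2, 2 without replicate 3 and 1 without replicate 4, against 25 without sham replicate 2. It was 12 with no filter on dim probes, 13 on these 2 groups alone and 0 with the value table's columns.

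High-dose against low-dose STW5 gave 22 members that were higher at the high dose and 0 that were lower, with a median of 1.82 against -0.15 over all genes; 10.7% of all genes were called higher. In 27 members the groups did not overlap, against 15.2% of all genes. Cd163 was higher by 2.87 ± 0.66, Mrc1 by 2.77 ± 0.38, Itgb2 by 2.71 ± 0.82, Clec7a by 2.68 ± 0.86 and Csf1r by 1.89 ± 0.41 (adjusted p = 0.00783, 0.000279, 0.0260, 0.0329 and 0.00572, limma). With normexp background correction 19 members were higher and 2 were lower, Irf8 at -0.50 and Itgax at -0.41 (adjusted p = 0.0262 and 0.0276, limma), against -0.43 and 0.19 (adjusted p = 0.308 and 0.830) without it. The doses lay on different slides, and the direction turns round if the value table's dose assignment is right. The count was 2 without low-dose replicates 1 and 2, 14 without low-dose replicate 3, and 13 and 12 without high-dose replicates 3 and 4.

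High-dose STW5 against omeprazole, within slide 3, gave 0 of 35 calls in limma, although 23 members had an unadjusted p under 0.05, all higher with STW5, and 20 lay above all omeprazole arrays. Over all genes 0.221% were called, 7.13% were higher at an unadjusted p under 0.05 and 7.97% lay above without overlap. The smallest p-values were those of Mrc1 at 1.51 ± 0.35, Aif1 at 1.32 ± 0.43 and Laptm5 at 1.26 ± 0.42 (adjusted p = 0.0951, 0.174 and 0.174, limma). Fitted on these 2 groups alone, 16 members were called higher, and 21 with array weights, where 4.7% and 7.83% of all genes were called higher as well.

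The members varied more between rats of a group than genes in general. Their median SD was 1.00 among sham, 0.88 among untreated, 0.76 among low-dose and 0.51 among both high-dose and omeprazole samples, against 0.34, 0.37, 0.32, 0.23 and 0.26 over all genes. Averaged over the 35 members and set against the sham mean, the sham arrays stood at -0.90, 1.04, -0.59 and 0.46 and the untreated arrays at 3.89, 2.36, 3.86 and 3.16. The low-dose samples stood at -0.92 (replicates 1 and 2), 0.19 and 0.44, the high-dose arrays at 1.02, 1.60, 1.90 and 2.12, and the omeprazole arrays at 0.13, 0.90, 0.98 and 0.08. The untreated arrays did not overlap with any other group in this mean, whereas sham samples overlapped with low-dose and omeprazole ones and, through sham replicate 2, with high-dose replicate 1. Untreated replicate 2 was the lowest untreated array.

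Other genes of myeloid cells, from a list of 59 of which 55 were measured, mostly rose as well. In untreated against sham 48 rose and 1 fell, with a median of 2.60, where 15% of all genes were called higher. Tlr7, a sensor gene for viral RNA, rose by 3.44 ± 0.35, Cd300a, an inhibitory receptor gene, by 4.08 ± 0.47 and the activating receptor gene Fcgr2a by 3.36 ± 0.41 (adjusted p = 9.02e-05, 0.000158 and 0.000181, limma). In low-dose, omeprazole and high-dose samples against untreated ones 49, 45 and 17 of the 55 fell, with 1, 0 and 0 rising. Of all genes 15.9%, 12.2% and 4.36% were called lower there. In high-dose against sham 25 of 55 were higher, against 6.05% of all genes.

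Markers of neutrophils and of T and NK cells also rose, while those of B and plasma cells did not. Of 11 measured neutrophil markers (15 listed) 9 rose in untreated against sham, with a median of 5.23, among them Camp, the cathelicidin gene, at 5.82 ± 0.86 and Csf3r, the granulocyte colony-stimulating factor receptor gene, at 5.23 ± 1.06 (adjusted p = 0.000295 and 0.00178, limma). Their mean over the sham level ranged from -1.21 to 2.52 in sham, 3.04 to 5.83 in untreated, -1.06 to 1.29 in low-dose, 1.74 to 3.48 in high-dose and -0.62 to 2.54 in omeprazole samples. T and NK cell markers rose in 10 of 12 measured, with a median of 2.19, among them Cd8b at 2.59 ± 0.46 (adjusted p = 0.000821). Of 8 B and plasma cell markers only Pax5 and Tnfrsf17 were measured, and Tnfrsf17 fell (-2.43 ± 0.48) (adjusted p = 0.00153). Mast cell and eosinophil markers rose in 3 of 11. In this comparison 15% of all genes were called higher, and 2440 of 13596 were called lower. Several members are expressed by neutrophils too, and the part of other leukocytes in the members' changes was not tested.

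Tissue markers moved as well in untreated against sham. Of all 13596 genes, 2440 were called lower and 2035 higher in that comparison. Squamous keratinocyte markers fell in 6 of 10, such as Krt1 (-3.06 ± 0.57), striated muscle markers in 7 of 13, such as Actn3 (-2.40 ± 0.37), and smooth muscle markers in 3 of 7, such as Myh11 (-1.92 ± 0.41) (adjusted p = 0.00106, 0.000355 and 0.00233, limma). Fibroblast markers rose in 4 of 10, such as Pdgfrb by 1.97 ± 0.37, and endothelial markers in 6 of 10, such as Esam by 1.65 ± 0.31 (adjusted p = 0.00108 and 0.00113). In low-dose against untreated samples 8 of 10 fibroblast and 8 of 10 endothelial markers fell, where 15.9% of all genes were called lower. In high-dose against untreated samples the medians of these lists were -0.15 and -0.07, against -0.01 over all genes. The part of tissue makeup in the members' changes was not tested.

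**Figure D4:**
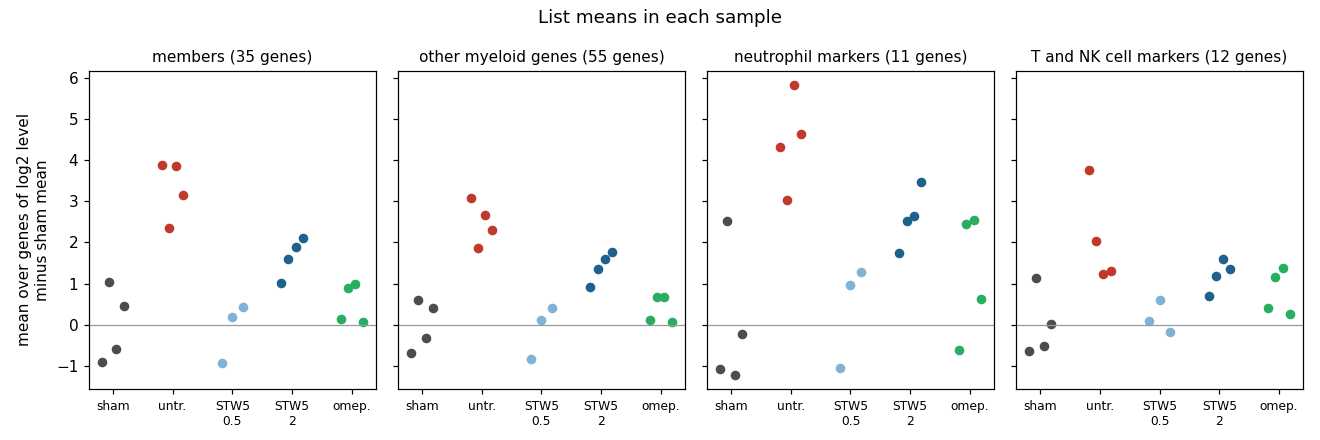
Mean over the measured genes of 4 lists (panels) of the log2 level minus the sham mean, for each of the 19 samples by group. Untreated samples stand highest in the members and the other myeloid genes without overlap with sham; sham replicate 2 stands at 2.52 in the neutrophil panel.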

How the data were processed

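Per the file headers, the authors scanned one-colour (Cy3) arrays annotated on the rat build rn4. Each array held 58717 features once control features were left out. The authors deposited the background-subtracted intensity that Agilent Feature Extraction 10.7.3.1 gives per feature, not scaled between arrays. Their deposited value table, used as an alternative, gives the ratio of a signal to the array's median. Other upstream steps are not given in the sources used here.

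Log2 intensities were scaled by each array's 75th percentile; 263 to 377 outlier features per array were left out and spots of a probe averaged. Probes needed 50% or more of their spots well above background on 4 or more arrays, and a gene took its probe with the highest mean. All 5 groups were fitted in limma 3.58.1 (R 4.3.3) (14 residual degrees of freedom, 2.78 prior ones, no covariate), over 9 comparisons. The fit was tested on simulated data. Precision is limited by the number of arrays. The labels number replicates and name no animals, and it is the series text that ascribes the arrays of a group to 4 animals.

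The members, role groups, lists and tests were chosen with earlier results of these data known. Levels on every array were given for the largest change between untreated and sham in each role group. They were also given for Irf8, Tlr4, Itgax and Cyba, the smallest changes in their role groups. The levels of Mrc1, Cd163, Slc11a1 and Gpr84 were added after their values were seen. Changes were given for all members in untreated against sham and low-dose against untreated, elsewhere for called members or the 3 smallest p-values, and for at most 4 genes of a list by p. Outside this rule, changes of uncalled members were given for Cd163, Mrc1 and Csf1r in high-dose against untreated and Itgb2 in high-dose against sham. Those of Irf8 and Itgax were given in high-dose against low-dose. Promoters were read from RefSeq (GRCr8). Alternatives changed the background correction, scaling, filter, probe rule, samples, weights and block; raising dim signals to background was added after seeing the data. Sequences of the proteins were not used here. Figures were drawn with matplotlib 3.10.9.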

Additional observations from a re-analysis of the deposited data

Results flagged for a closer look

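Over 140 sets of 4 arrays, each a measured gene in sham, untreated, high-dose or omeprazole rats, the highest or lowest array stood apart in 4 (2.86%), where chance gives about 5%. Gpr84 stood at -4.64 in sham replicate 2, against -7.35 to -7.04 in the other sham arrays. Itgam stood at -1.51 in omeprazole replicate 1, against -0.53 to -0.46 in the others. Cd163 stood at -0.31 in omeprazole replicate 4, against -0.56 to -0.52. Ccr1 stood at -5.87 in high-dose replicate 1, against -4.40 to -4.24.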

How the results depend on the processing

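The 32 calls of untreated against sham all held under each of the 20 alternatives run, and Itgax and Irf8 were called as well under 2 each. In omeprazole against untreated the count was 31 to 34 under the alternatives run, and the call of Cd163 was lost without untreated replicate 3. Leaving out 1 sample at a time gave 6 to 24 calls in high-dose against untreated, 1 to 25 in high-dose against sham, 2 to 25 in high-dose against low-dose and 0 to 1 in omeprazole against sham. Members called changed in high-dose against untreated to 26 with normexp, 7 on the 2 groups alone and 33 with the value table, and in high-dose against sham to 12 without a filter, 13 on the 2 groups alone, 33 with array weights and 0 with the value table. In low-dose against sham they changed to 3 with array weights and 20 with the value table, in low-dose against untreated to 14 with the value table, and in omeprazole against sham to 13 with array weights. In high-dose against omeprazole they changed to 1 with normexp, 16 on the 2 groups alone, 21 with array weights and 1 with the value table. Array weights also raised the calls over all 13596 genes. They were 3036 higher and 4053 lower in high-dose against sham, where the main fit gave 823 and 339. In omeprazole against sham they were 1827 and 1737, where the main fit gave 211 and 2. Sham replicate 3 had a weight of 8.93, and the other sham arrays had 0.39 to 0.62. The cause was not tested, except that the value table holds the other dose's arrays under each STW5 name. By that exchange these log2 changes reversed. In high-dose against sham they were Cd163 -0.76, Csf1r -0.83, Mrc1 -1.05, Tyrobp -0.092, Aif1 -0.21, Fcer1g -0.43, Fcgr1a -0.63, Fcgr2b -0.38, Cybb -0.032, Ncf4 -0.11, Spi1 -0.59, Laptm5 -0.57, Cd53 -0.50, Ptprc -0.70, Clec7a -0.38, Tlr2 -0.13, Ccr2 -0.25, Lcp1 -0.39 and Lcp2 -0.60. In high-dose against low-dose they were Cd14 -1.84, Cd68 -2.25, Cd163 -3.19, Csf1r -2.06, Mrc1 -2.90, Tyrobp -1.81, Aif1 -1.86, Itgb2 -2.96, Fcer1g -2.63, Fcgr1a -2.78, Fcgr2b -2.44, Cybb -1.77, Ncf4 -1.76, Spi1 -1.99, Laptm5 -1.99, Cd53 -2.86, Ptprc -2.60, Clec7a -2.99, Ccr1 -1.88, Ccr2 -2.07, Lcp1 -2.27 and Lcp2 -2.34. In high-dose against omeprazole they were Mrc1 -1.32, Aif1 -0.46 and Laptm5 -0.67, and in low-dose against sham Mrc1 1.86 and Csf1r 1.23. With normexp, Ccr1 reversed to -0.15 in omeprazole against sham and -0.00023 in high-dose against low-dose, and Irf8 to 0.13 in low-dose against untreated. Without single samples that change of Irf8 ranged from -0.33 to 0.16 and that of Tlr4 from -0.37 to 0.15. With the replicate number as a block over all 20 arrays, 32 members were called in untreated against sham. Low-dose, high-dose and omeprazole against untreated gave 33, 15 and 31. High-dose gave 19 against sham and 29 against low-dose. No count changed by over 1.5 times from the main fit. In high-dose against low-dose the main fit gave 22, and all 20 arrays without a block also gave 29. Both fits to 20 arrays count low-dose replicates 1 and 2 as separate samples. Same-numbered deviations correlated above 0.1 in 19 of 40 pairs (-0.32 to 0.58). Low-dose and high-dose arrays exceeded it in all 4 (0.12 to 0.24). Low-dose replicates 1 and 2 were nearly identical, so these are not 4 separate pairs. Whether the numbers pair these 2 groups cannot be told from this measure. In the other 9 pairs of groups the correlations did not all exceed 0.1. Scaling by the median moved the median of all genes from 0.10 to -0.10 in omeprazole against untreated and turned the split of all calls from 2116 higher and 1656 lower to 1197 and 2351; the members' falls there were 33. Members near background, such as Lyn, Itgax, Ccr1 and Gpr84, are limited by signal over background.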
